A study of Mus musculus with 18 samples.

Results

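Glycolysis, the pentose phosphate pathway and the tricarboxylic acid (TCA) cycle were followed through chemical reprogramming of mouse fibroblasts by the mRNA levels of 40 genes, chosen by symbol from a fixed list of enzymes and carriers out of 55401 Ensembl genes. They comprise 2 glucose carriers, 16 genes of glycolysis and its control, 4 genes of lactate production and export, 3 genes at pyruvate dehydrogenase, 5 of the pentose phosphate pathway and 8 of the TCA cycle, with cytosolic isocitrate dehydrogenase (Idh1) and cytosolic malate dehydrogenase (Mdh1) kept apart. Each of the 40 reached 1 FPKM in 2 or more libraries, the limit for testing that 16439 genes passed. FPKM, fragments per kilobase of transcript, is scaled to transcript length and to the library's mapped fragments, so levels of different genes can be set side by side.

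The series holds 18 RNA-seq libraries in 9 groups of 2. D0 is mouse embryonic fibroblasts (MEF) of the label 129XOG2 E13.5 embryo, grown in DMEM with serum. D2, D4, D6, D8, D10 and D12 are OG2 MEFs of early passage after 2, 4, 6, 8, 10 and 12 days in a reprogramming medium whose components are not named in the labels. The end points are riPSC, the induced pluripotent stem cells, labelled with the same strain as D0, and mESC, the R1 embryonic stem cell line from a mouse blastocyst. OG2 cells carry a green fluorescent reporter of the pluripotency gene Oct4, in D0 as in all groups made from them. Both were kept on feeder cells in N2B27-type medium with LIF, CHIR99021 and PD0325901, so the stem cell groups share additions that the D0 medium lacks, and their RNA may include feeder RNA. Nothing in the labels says whether the 2 libraries of a group came from separate cultures, and the spread behind each p-value may be technical.

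Glycolysis turns glucose into pyruvate in the cytosol and yields ATP without oxygen. Lactate dehydrogenase then regenerates NAD+ by turning pyruvate into lactate, or pyruvate enters the mitochondrion and feeds the TCA cycle through pyruvate dehydrogenase. The pentose phosphate pathway branches from glucose 6-phosphate and supplies NADPH and ribose for nucleotides. Many of these steps are served by isozymes that are encoded by different genes and differ in tissue and regulation, and pluripotent stem cells are known for high glycolytic activity.

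The libraries differed in ways that touch the values below. Depth, read from the smallest steps between values of single-exon genes, was 32.9 to 41.5 M reads in the 16 libraries outside D2. The D2 columns could not be read as separate libraries. They held 17190 and 19346 values with more than 6 decimals, against 0 in each other column, 1980 genes stood at a ratio of 5.0 between them, and at most 23 genes shared 1 ratio in any other of the 153 column pairs. Their difference is therefore no measure of replicate error. D2 is given below by its values, with tests of D2 only where this limit is named. The D2 columns stayed in the fit of all 18 libraries, so their difference also enters the spread behind the other tests. A fit without them is given among the alternatives. Transcripts of the mitochondrial genome made up 62.3% and 62.1% of all FPKM in D12, 28.1% and 27% in riPSC and 0.437% and 1.89% in D0. FPKM is divided by length, so these are not shares of reads. Weighted by transcript length, the mitochondrial shares were 18.6% and 18.2% in D12, 4.18% and 3.91% in riPSC and 0.115% and 0.275% in D0. Their part in the results was not tested beyond rescaling the values without mitochondrial transcripts and ribosomal protein genes.

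Marker genes were read against the labels. The summed FPKM of 8 pluripotency markers was 0 and 0.248 in the D0 libraries, 308 and 308 in D8, 1409 and 1447 in D12 and 4903 and 5193 in riPSC. In D12 Nanog stood at 1.76 and 1.76, against 273 and 275 in riPSC. The sum of 7 markers of extraembryonic endoderm was 851 and 874 in D12 and 8.5 and 9.47 in riPSC. Those of 8 fibroblast markers were 763 and 1201 in D0, 638 and 657 in D12 and 82 and 87.1 in riPSC. The D12 libraries thus held RNA of all 3 marker sets at once, and the part of these sets in the results was not tested. D0 also held RNA of striated muscle and myeloid genes, with sums of 385 and 335 over 9 genes and 95.1 and 101 over 7, and the fit does not separate their share. In bulk RNA, fewer cells of a type and less RNA per cell cannot be told apart.

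Of the 16 glycolysis genes, 12 were higher in riPSC than in the fibroblasts, Gapdh among them, and 10 were lower on day 12 than in riPSC. The 12 became 7 with the length trend removed (22.4% of all genes higher) or under median-of-ratios scaling (31.5%). A gene was called, and is said below to have risen or fallen, at a Benjamini-Hochberg adjusted p under 0.05 over all 16439 tested genes (limma) and at least a 2-fold difference on the log2(FPKM + 1) scale. That scale understates the change of low genes. In riPSC against D0, 24 of the 40 genes were higher and 1, Mdh2, was lower, where 40.1% of all tested genes were called higher and 13.0% lower. The median log2 fold change was 1.46 over the 40 genes and 0.62 over all genes. In D12 against riPSC, 2 were higher and 18 lower, where the shares of all genes were 16.7% and 19.8%, with medians of -0.87 and -0.06. Between riPSC and mESC none of the 40 was called by limma, where 1.84% of all genes were called higher and 1.20% lower. By limma's unadjusted p under 0.05, 6 of the 40 were higher and 2 lower. Fitted by limma without the D2 columns, 12 of the 40 passed this limit in either direction. The share of all genes at an unadjusted p was not computed, here or below, so such counts do not set the 40 apart.

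The riPSC and D0 difference depended on scaling. Once a trend of the values with transcript length was removed, the median of all genes in that comparison moved from 0.62 to -0.06. That of the 40 genes moved from 1.46 to 0.73, and the counts from 24 higher and 1 lower to 16 and 3. The shares of all genes became 22.4% higher and 23.1% lower. The calls lost were Gpi1 (0.39), Pfkl (0.10), Pfkm (0.51), Gapdh (0.75), Pgk1 (0.74), Pdha1 (0.95), Cs (0.73) and Idh3a (0.73), and Pgd (-1.16) and Rpia (-1.60) joined Mdh2 among the lower. In D12 against riPSC the count of lower genes grew on 1 scaling. Rescaled without mitochondrial and ribosomal protein transcripts, 27 of the 40 were lower and 1 higher. The shares of all genes moved as well, to 31% lower and 11.2% higher, with medians of -0.43 over all genes and -1.38 over the 40. Quantile normalization gave 17 lower and 5 higher, where 18.5% of all genes were lower and 17% higher.

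**Figure D1:**
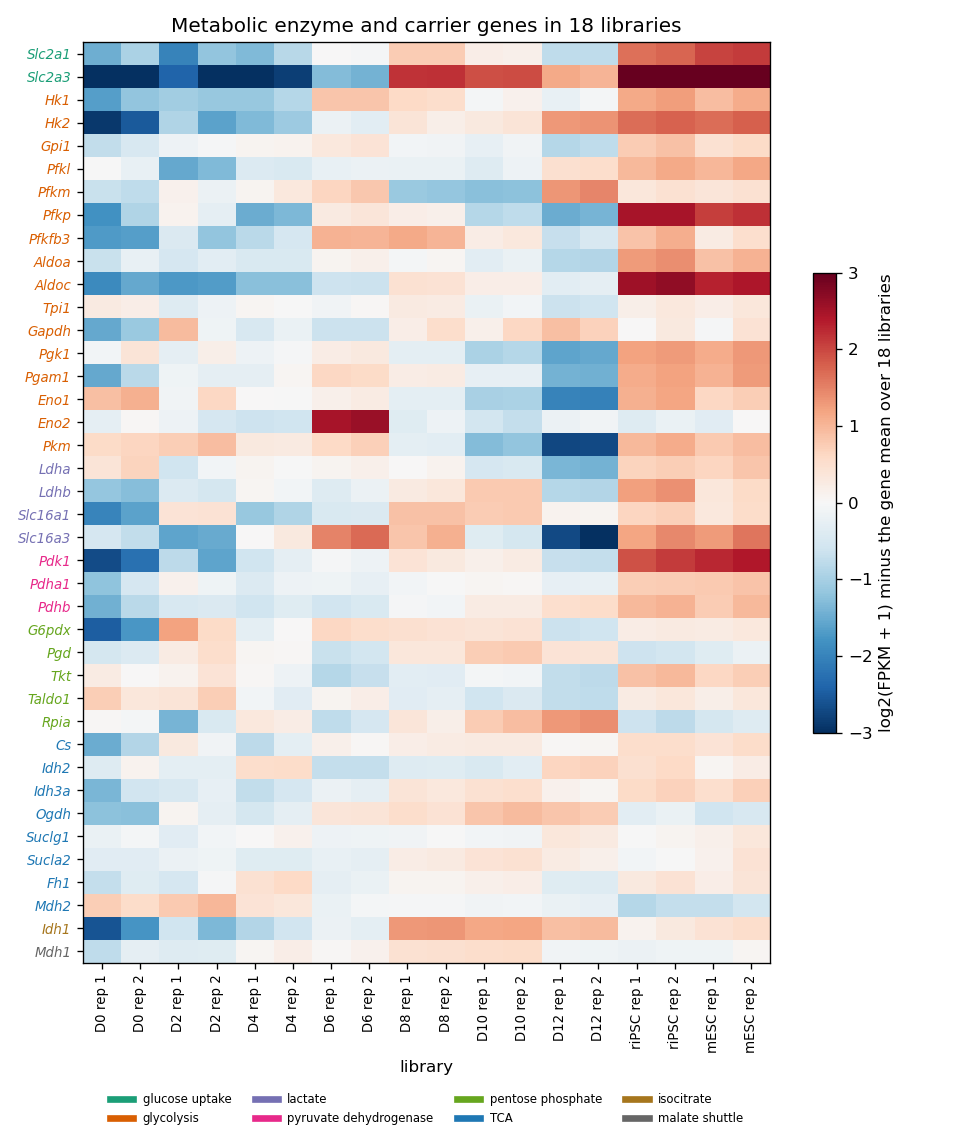
Levels of the 40 genes in the 18 libraries as log2(FPKM + 1) minus the mean of each gene, with colours cut at -3 and 3 and gene names coloured by pathway. Replicates look alike in most groups, the stem cell columns are high for most glycolysis genes, and the D12 columns are low for Pkm, Eno1, Pgk1 and Slc16a3 and high for Hk2, Pfkm and Rpia.

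**Figure D2:**
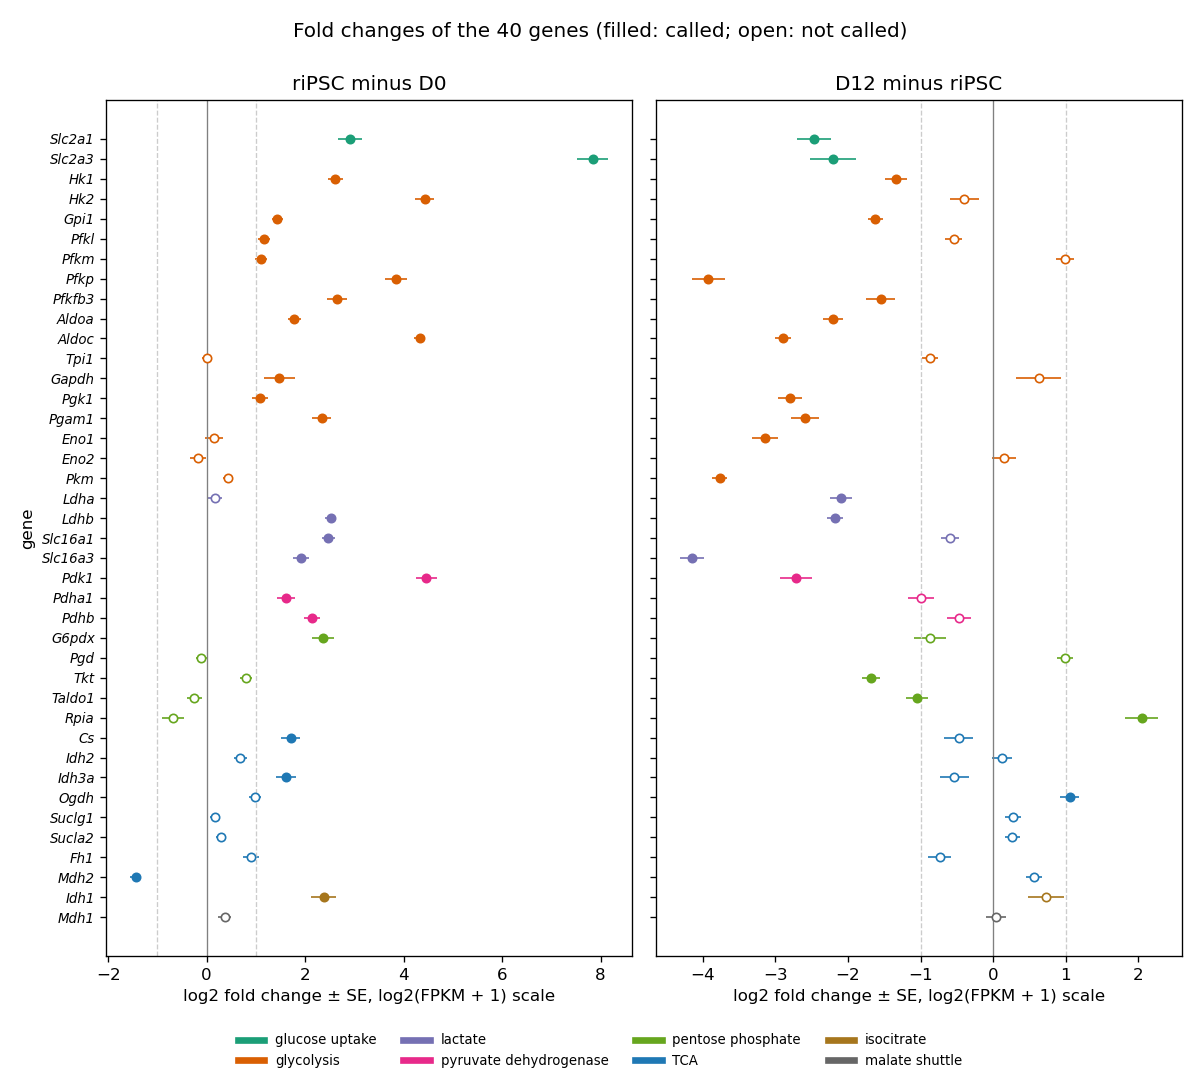
The log2 fold change of each gene with its standard error in riPSC minus D0 (left) and D12 minus riPSC (right), with dashed lines at 2-fold. Filled points were called, 25 on the left and 20 on the right, and on the right they lie mostly among glucose carriers, glycolysis and lactate genes.

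Along the course the changes came in steps. In D6 against D4, 7 of the 40 rose and 1 fell (11.6% and 6.86% of all genes), and all 7 that rose belong to glucose uptake, glycolysis or lactate export. In D8 against D6, 5 rose and 2 fell (15.1% and 11.3%). The counts became 3 and 3 on the rescaling without mitochondrial and ribosomal protein transcripts (12% and 14.4%). With the length trend removed they became 4 and 3 (12.3% and 13.2%). In D10 against D8 none rose and only the lactate exporter gene Slc16a3 fell (0.426% and 2.43%). By limma's unadjusted p under 0.05, 4 were higher and 12 lower, a looser rule than that of the percentages. In D12 against D10, 2 rose and 6 fell (6.01% and 4.68%). Rescaled without mitochondrial and ribosomal protein transcripts, 1 rose and 12 fell (3.72% and 8.29%). With the length trend removed, 3 rose and 4 fell (6.53% and 3.88%). For the first days the comparison of D4 with D0 was added, in a fit without the D2 columns: the 9 genes called were all higher, where 21.5% of all genes were higher and 4.82% lower. The 9 were Slc2a3, Hk2, Pfkfb3, Pgam1, Ldhb, Pdk1, G6pdx, Idh1 and Fh1. With the D2 columns, the fit called 10 higher and 1 lower in D2 against D0 (19.5% and 4.63%) and 3 and 3 in D4 against D2 (5.66% and 4.48%). With the length trend removed the first became 5 and 5. Fitted by limma on the compared libraries alone, the first came to 0 and 0 (0.389% and 0.146%), with 15 at an unadjusted p under 0.05. The second came to 1 and 1 (1.14% and 0.912%).

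The glucose carriers changed places between D6 and D8. Slc2a1, which encodes GLUT1, and Slc2a3, which encodes the high-affinity carrier GLUT3, import glucose. Slc2a3 was nearly absent from the fibroblasts, with FPKM of 1.35 and 0.0231 in the 2 libraries, and read 3.36 and 4.17 in D4, 13.7 and 12.6 in D6 and 163 and 167 in D8. It then stood at 138 and 141 in D10, 79.5 and 73.2 in D12, 349 and 362 in riPSC and 322 and 354 in mESC. Both D8 libraries lay above every earlier library, and both D12 libraries lay below those of D8, D10 and the stem cells. The rise from D6 to D8 was 3.55 ± 0.31 (log2 fold change ± SE, adjusted p = 1.18e-06) and that from D0 to riPSC 7.84 ± 0.31 (adjusted p = 3.33e-10). The smaller rise from D4 to D6, 1.58 ± 0.31, did not pass with a pseudocount of 0.1 (adjusted p = 0.0955). Marker sets moved in the same step: from D6 to D8 the fibroblast sum went from 2413 and 2407 to 368 and 366, that of extraembryonic endoderm from 50.3 and 48 to 510.4 and 487, and that of 5 epithelial markers from 56.4 and 59.1 to 882 and 884. The epithelial sum was 735 and 747 in D12 and 108 and 114 in riPSC. All 8 fibroblast markers fell and all 7 and 5 of the others rose between D6 and D8. Their part in this and the other D6 to D8 changes was not tested.

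Slc2a1 spanned a narrower range. Its FPKM was 13.5 and 19.7 in D0, 9.05 and 16.9 in D2 and 15 and 21.5 in D4, and 39.4 and 38.1 in D6, 67.1 and 67.2 in D8, 44.9 and 43.5 in D10 and 22.6 and 22.6 in D12. In riPSC it was 126 and 134 and in mESC 163 and 171. D12 was thus close to the values of the first days. Its difference from riPSC was -2.47 ± 0.24 (adjusted p = 1.46e-06). Of the FPKM of the 2 carriers together, Slc2a3 made up 9.12% and 0.117% in D0, 25.8% and 24.9% in D6, 70.8% and 71.3% in D8, 77.9% and 76.4% in D12 and 73.5% and 73.1% in riPSC. Both carriers read lower in D12 than in D10, and the share of Slc2a3 stayed above 70% in every library from D8 to riPSC.

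Hexokinases trap glucose in the cell by phosphorylating it. Hk1, the housekeeping form, read 6.15 and 8.88 in D0, 9.19 and 11.4 in D4, 38.7 and 38.6 in D6, 33 and 31.6 in D8, 20.6 and 23.5 in D10, 18.4 and 20.5 in D12 and 48.6 and 52.2 in riPSC. It rose once, between D4 and D6, by 1.82 ± 0.15 (adjusted p = 1.53e-06). Hk2, the inducible form, read 2.22 and 3.13 in D0, 8.55 and 10.3 in D4, 20.0 and 18.2 in D6, 30.0 and 25.7 in D8 and 28.4 and 30.4 in D10. It reached 58.2 and 59.2 in D12, 75.1 and 80.1 in riPSC and 74.7 and 82 in mESC. Its step from D10 to D12, 0.98 ± 0.20, stayed just under the 2-fold threshold, and D12 was not called different from riPSC at -0.40 ± 0.20. Hk2 made up 26.6% and 26.1% of the pair in D0 and 76% and 74.3% in D12, its highest share in any group. Both genes were called higher in riPSC than in D0, Hk1 by 2.61 ± 0.15 and Hk2 by 4.43 ± 0.20.

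A further hexokinase family gene that is not among the 40, Hkdc1, followed another course. It was listed at 0 in both D0 libraries and stood at 0.868 and 0.986 in D6, 22.1 and 21.3 in D8, 25.4 and 29.1 in D10 and 54.7 and 54.1 in D12. The stem cells held next to none of it, 0.121 and 0.147 in riPSC and 0.0969 and 0.137 in mESC. The D12 values lay just below those of Hk2, and the difference from riPSC was 5.61 ± 0.09 (adjusted p = 1.37e-13). Of 9 tested genes of glucose uptake and glycolysis outside the 40, Hkdc1 included, 2 were higher and 2 lower in riPSC than in D0, and 4 higher and 2 lower in D12 than in riPSC. For these and the further lists outside the 40, the shares of all tested genes to set beside the counts are 40.1% higher and 13.0% lower in riPSC against D0, and 16.7% and 19.8% in D12 against riPSC. The highest of them in riPSC against D0 were Adpgk, an ADP-dependent glucokinase, at 2.55 ± 0.28 and Slc2a8, a further glucose carrier, at 2.16 ± 0.22.

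Phosphofructokinase commits sugar to glycolysis, as a tetramer of liver-type (Pfkl), muscle-type (Pfkm) and platelet-type (Pfkp) subunits. Pfkp was 4.44 and 9.35 in D0, 19.6 and 15 in D2, 5.88 and 6.62 in D4, 22.3 and 23.8 in D6, 20.9 and 20.3 in D8, 9.69 and 10.4 in D10 and 5.88 and 6.29 in D12. In riPSC it was 106 and 107 and in mESC 79.8 and 87.6, far above every library of the course. D12 lay -3.92 ± 0.22 from riPSC (adjusted p = 1.01e-08). Pfkm was highest in D12. It read 8.15 and 7.56 in D0, 14.8 and 11.8 in D2, 14.4 and 17 in D4, 21.6 and 24.3 in D6, 5.75 and 5.51 in D8, 5.13 and 5.23 in D10, 35.3 and 38.8 in D12 and 17.5 and 18.8 in riPSC. It fell between D6 and D8 with a log2 fold change of -1.85 ± 0.12 and rose between D10 and D12 by 2.62 ± 0.12 (adjusted p = 1.03e-08), the largest rise of any of the 40 in that step.

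Pfkl varied less from D4 to D10. It read 44.8 and 38.6 in D0, 14.8 and 17.2 in D2, 33.8 and 32.5 in D4, 38.9 and 39 in D8, 63.2 and 65.5 in D12 and 89.3 and 99.7 in riPSC. It was the 1 gene called lower in D2 against D0 (-1.33) and was called higher in D4 against D2, both under the limit of the D2 columns. The make-up of the family differed at each end: Pfkp supplied 49.9% and 47.4% of its FPKM in riPSC and 5.64% and 5.69% in D12, whereas Pfkm supplied 8.19% and 8.34% and 33.8% and 35.1%. Pfkfb3, whose product makes the activator fructose 2,6-bisphosphate, read 0.99 and 1.05 in D0, 13 and 12 in D8, 3.00 and 3.62 in D12 and 10.7 and 12.6 in riPSC. It rose from D4 to D6 by 1.69 ± 0.20. Of 4 other genes for that metabolite, 3 were higher in riPSC than in D0. In D12 against riPSC, Pfkfb2 was higher by 2.47 ± 0.25 and Tigar, which encodes the opposing phosphatase, lower, at -1.35 ± 0.12.

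**Figure D3:**
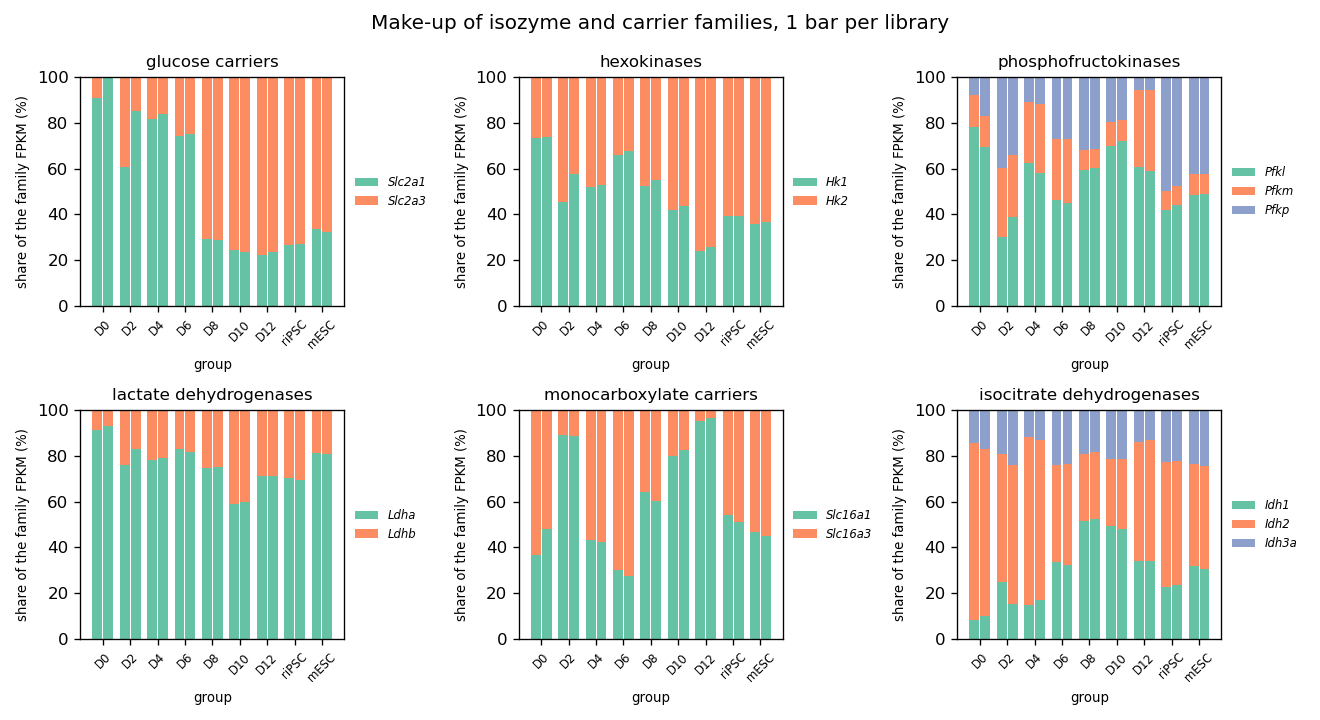
Share of each member in the summed FPKM of its isozyme or carrier family, with 1 stacked bar per library and 2 libraries per group. Slc2a3 and Slc2a1 exchange places between D6 and D8, Pfkp is smallest and Pfkm largest in D12, Ldhb is largest in D10, and Slc16a1 makes up nearly all of its pair in D12.

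The enzymes from phosphoglucose isomerase to pyruvate kinase, which convert glucose 6-phosphate to pyruvate, formed the bulk of the measured glycolytic mRNA. The FPKM of these 12 genes, leaving out Gapdh, summed to 3147 and 3580.2 in D0, 3405 and 3600.3 in D6, 2539.9 and 2579 in D8, 1748 and 1872 in D10 and 1100.1 and 1109 in D12. The sums in riPSC were 5734 and 6192 and in mESC 4762 and 5297. Both D12 libraries were the lowest of all 18 and the riPSC libraries the highest, without overlap. The 12 include the phosphofructokinase subunits described above.

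Pkm, which encodes the pyruvate kinases PKM1 and PKM2 by alternative splicing, read 1018 and 1062 in D0, 835 and 825 in D4, 1027 and 1107 in D6, 551 and 542 in D8, 274 and 299.7 in D10, 101 and 103 in D12 and 1341 and 1465 in riPSC. The values of these genes count all transcripts, so the splice forms are not separated. Pkm fell from D10 to D12 with a log2 fold change of -1.48 ± 0.10 (adjusted p = 2.77e-07) and lay -3.77 ± 0.10 from riPSC (adjusted p = 9.41e-12). In riPSC against D0 it was not called, at 0.43 ± 0.10, though quantile normalization called it (1.08). The D12 libraries stood apart from both, below every other library.

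Pgk1, phosphoglycerate kinase, an ATP-forming step, had the same low point. It read 208 and 289 in D0, 255 and 269 in D6, 113 and 120.2 in D10, 72.3 and 75.2 in D12 and 505 and 533 in riPSC. The difference of D12 from riPSC was -2.80 ± 0.16 (adjusted p = 1.34e-08). Pgk1 is X-linked, as are Pdha1 and G6pdx. Xist, the RNA that coats an inactive X chromosome, was at 65.7 and 61.9 in D12, 4.3 and 4.05 in D10 and near 0 in riPSC, and the median difference of D12 from riPSC over 582 X-linked genes was -0.11. The part of X-linked dosage in the Pgk1 difference was not tested.

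Pgam1, phosphoglycerate mutase, read 64.1 and 107 in D0, 291 and 279 in D6, 69.9 and 68.2 in D12 and 405 and 439 in riPSC, and D12 differed from riPSC with a log2 fold change of -2.59 ± 0.19. A copy on chromosome 7, Pgam1-ps2, aligned without a mismatch and held 3.73 to 11.4% of their combined FPKM. The muscle isozyme gene Pgam2, not among the 40, was higher in D12. It read 5.71 and 7.25 in D8, 15.3 and 14.8 in D10, 58 and 64.6 in D12 and 2.48 and 2.22 in riPSC. It rose from D10 to D12 by 1.95 ± 0.18 (adjusted p = 4.92e-06), and its FPKM in D12 was close to that of Pgam1. Of the 9 striated muscle markers, 6 were below 1 in both D12 libraries, and all 9 summed to 7.58 and 9.31. Of the 8 tested, 1 was higher and 0 lower in D12 against D10 (6.01% and 4.68% of all genes). In D12 against riPSC, 1 was higher and 2 lower (16.7% and 19.8%). The part of muscle RNA in the Pgam2 rise was not tested.

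Aldoa, the main aldolase, read 398 and 548 in D0, 676 and 704 in D6, 354 and 344 in D12 and 1554 and 1668 in riPSC. Both riPSC libraries lay above every library of the course, and the difference from D0 was 1.78 ± 0.14. Aldoc, the brain-type aldolase, was minor: 0 and 0.286 in D0, 4.14 and 4.06 in D8, 2.02 and 2.09 in D12 and 21 and 22.5 in riPSC, at most 1.47% of the pair. Gpi1, phosphoglucose isomerase, ran from 103 and 124 in D0 to 215 and 231 in D6, 96.3 and 103 in D12 and 295 and 321 in riPSC. Tpi1, triose phosphate isomerase, varied least of these genes. It read 315 and 299.9 in D0, 166 and 171 in D12 and 295 and 324 in riPSC and was called in none of the 9 comparisons, but rescaled without mitochondrial and ribosomal protein transcripts it was called lower in D12 than in riPSC (-1.41).

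Enolase levels must be read with copies of the gene in mind. Eno1 read 979.5 and 1090.2 in D0, 584 and 622 in D6, 263 and 269 in D10, 129.9 and 128 in D12, 1102 and 1189 in riPSC and 808 and 877 in mESC. Its 3 near-identical copies, found by aligning transcripts, held 27.2 to 52.0% of the combined FPKM. The most abundant copy, Eno1b, annotated as protein-coding, was listed at 542 and 615 in mESC and at 337 and 364 in riPSC. With copies added, the sums were 186 and 186 in D12, 1634 and 1763 in riPSC and 1649 and 1828 in mESC. With copies the 2 stem cell groups overlapped, and D12 was the lowest group with and without them. Eno1 alone differed between D12 and riPSC with a log2 fold change of -3.14 ± 0.18 (adjusted p = 8.50e-09). Its fall from D10 to D12, -1.04 ± 0.18, became -0.95 under median-of-ratios scaling and -0.93 with the length trend removed, both under 2-fold.

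Eno2, the neuron-type enolase, marked a single day. It read 3.77 and 4.95 in D0, 4.15 and 3.07 in D2, 2.77 and 2.79 in D4, 31.2 and 33.5 in D6, 3.47 and 4.19 in D8, 2.94 and 2.49 in D10, 4.14 and 4.4 in D12, 3.45 and 4.05 in riPSC and 3.53 and 4.84 in mESC. Only the D6 libraries were above 5. Eno2 rose from D4 to D6 by 3.14 ± 0.16 (adjusted p = 3.99e-08) and fell from D6 to D8 with a log2 fold change of -2.79 ± 0.16 (adjusted p = 2.37e-08), the largest change of any of the 40 in the first of these steps. Of the neural markers, Tubb3, which encodes a neuronal tubulin, read 19.2 and 23.5 in D4 and 12.8 and 12.9 in D6, and Elavl3, Elavl4, Dcx and Snap25 were below 1 in both groups. Stmn2, another neuronal microtubule gene, stood at 38 and 41 in the D4 libraries and 25.5 and 27.5 in the D6 libraries. The muscle enolase Eno3, not among the 40, read 59.5 and 47.3 in D0, beside the muscle markers there, and 5.3 and 4.88 in D4.

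Gapdh cannot be read from its own row. The gene was listed at 21.2 and 28.6 in D0, 118 and 102 in D12 and 63.8 and 78.1 in riPSC, low for this abundant enzyme, while 42 near-identical copies held 92.4 to 98.6% of the combined FPKM. Gene and copies together came to 1551 and 2111 in D0, 2158 and 2220.3 in D6, 1562 and 1529 in D12 and 3662 and 3981 in riPSC. The row of Gapdh put D12 above riPSC, and the sum put it below, so no direction is given for Gapdh. The counts of called genes above include its row, as higher in D2 and riPSC against D0 and in D8 against D6. The copies of Pgk1 held 1.35 to 3.41% of its combined FPKM, and 5 further members had copies that held under 3% of the combined FPKM in every library.

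**Figure D4:**
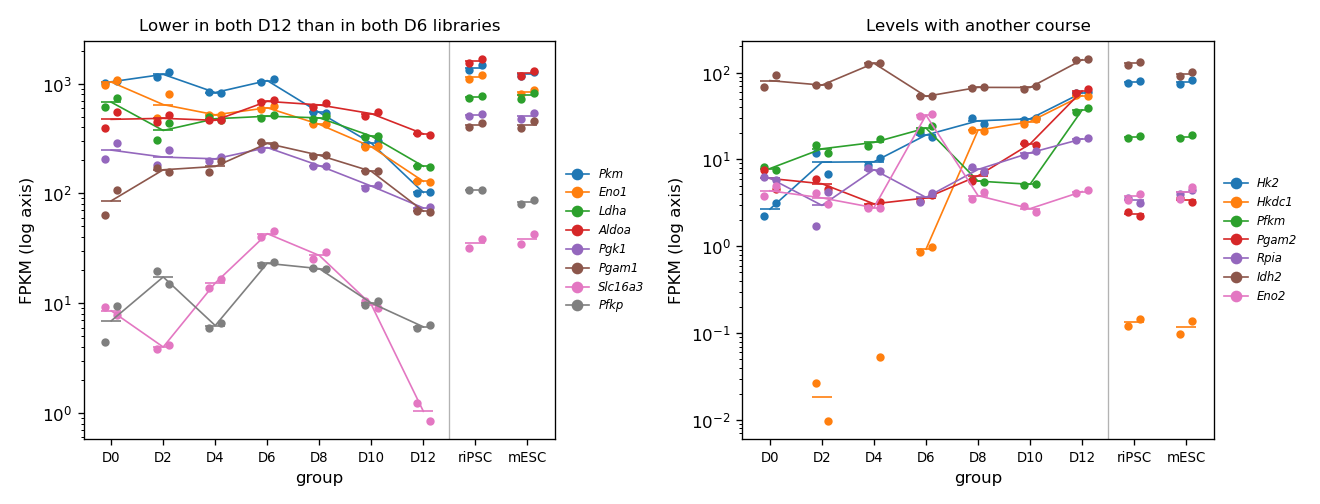
FPKM on a log axis in the 9 groups, with 1 point per library, a dash at each group mean and lines joining the means of D0 to D12 (values of 0 are not drawn). The left panel shows 8 genes that were lower in both D12 libraries than in both D6 libraries, from Pkm at 101 and 103 in D12 to Slc16a3 at 1.22 and 0.848. The right panel shows Hk2, Hkdc1, Pfkm, Pgam2, Rpia and Idh2, high in D12, and Eno2 with its D6 peak.

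Promoters are shown for 4 of the genes that were lower in D12 than in riPSC, because their count of 1 short motif runs from 5 to none. Each runs from 250 bases before to 50 bases after the RefSeq start on GRCm38.p6, 5′ to 3′ on the strand of the gene, and capitals mark ACGTG on either strand (printed as CACGT where it lies on the other strand), a core shared by hypoxia response elements and, inside CACGTG, by E-boxes. Ldha lies at chr7:46845554-46845853 (+), Pgk1 at chrX:106186850-106187149 (+), Slc16a3 at chr11:120948817-120949116 (+) and Pfkp at chr13:6648722-6649021 (-).
Ldha: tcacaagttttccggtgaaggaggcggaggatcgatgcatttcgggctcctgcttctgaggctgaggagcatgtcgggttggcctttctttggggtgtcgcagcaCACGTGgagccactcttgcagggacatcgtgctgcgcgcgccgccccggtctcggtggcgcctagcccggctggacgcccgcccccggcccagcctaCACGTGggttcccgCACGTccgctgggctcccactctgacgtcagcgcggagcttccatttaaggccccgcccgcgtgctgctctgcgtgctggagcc
Pgk1: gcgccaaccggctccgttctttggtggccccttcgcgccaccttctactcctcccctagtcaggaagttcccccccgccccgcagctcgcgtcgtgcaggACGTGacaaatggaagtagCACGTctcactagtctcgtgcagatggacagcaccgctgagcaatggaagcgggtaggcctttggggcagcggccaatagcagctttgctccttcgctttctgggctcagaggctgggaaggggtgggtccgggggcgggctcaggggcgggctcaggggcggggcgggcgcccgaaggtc
Slc16a3: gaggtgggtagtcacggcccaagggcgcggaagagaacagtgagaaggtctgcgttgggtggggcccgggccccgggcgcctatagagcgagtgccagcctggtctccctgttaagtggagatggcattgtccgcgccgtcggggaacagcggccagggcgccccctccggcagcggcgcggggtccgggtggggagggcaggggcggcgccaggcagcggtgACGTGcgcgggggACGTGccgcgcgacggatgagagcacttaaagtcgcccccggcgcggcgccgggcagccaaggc
Pfkp: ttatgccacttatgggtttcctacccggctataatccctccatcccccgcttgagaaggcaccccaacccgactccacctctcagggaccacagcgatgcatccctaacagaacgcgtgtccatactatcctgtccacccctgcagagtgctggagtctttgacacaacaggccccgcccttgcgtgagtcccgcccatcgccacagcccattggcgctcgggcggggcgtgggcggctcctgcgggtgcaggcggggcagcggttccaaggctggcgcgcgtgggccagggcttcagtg

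The Ldha stretch held 5 matches, of which 4 overlap as the 2 strands of 2 CACGTG sites. Those of Pgk1 and Slc16a3 held 2 each, and that of Pfkp none, as did the second Ldha promoter in the RefSeq table. Of the 40 genes, 38 had a promoter there, 58 in all, and 26 of these (44.8%) held ACGTG. The 26 come from 18 genes, since 12 genes have several promoters and each promoter was counted. The motif stood in 19.6% of all 32851 promoters and in 24.7% of the 14395 promoters of tested genes. CACGTG stood in 7 of the 58 promoters, which come from 5 genes, since 3 are promoters of Ogdh and 2 of those overlap. It stood in 7.15% of all promoters and in 9.77% of those of tested genes. The GC-rich motif CCGCCC stood in 65.5% of the 58, in 35.7% of all promoters and in 60.4% of those of tested genes. Base composition was not matched in these comparisons. A match is a description of the letters and not a binding site.

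Lactate dehydrogenase interconverts pyruvate and lactate, with muscle-type (Ldha) and heart-type (Ldhb) subunits. Ldha read 611 and 745 in D0, 493 and 465 in D4, 472 and 504 in D8, 329 and 337 in D10, 179 and 174 in D12 and 739 and 772 in riPSC. As deposited, it was called in 1 comparison, D12 against riPSC, at -2.09 ± 0.15 (adjusted p = 1.01e-07). Rescaled without mitochondrial and ribosomal protein transcripts, it was also called lower in D12 than in D10 (-1.23) and in D2 than in D0 (-1.02). The D2 call also passed under median-of-ratios scaling (-1.19) and with the length trend removed (-1.16), under the limit of the D2 columns. Ldhb read 58.5 and 53.7 in D0, 138 and 123 in D4, 159 and 167 in D8, 227 and 226 in D10, 71.8 and 70.8 in D12, 311 and 341 in riPSC and 168 and 195 in mESC. It fell from D10 to D12 with a log2 fold change of -1.65 ± 0.11 (adjusted p = 2.85e-07), after its highest values between D0 and D12. Its share of the pair went from 8.74% and 6.72% in D0 to 40.9% and 40.1% in D10, then 28.6% and 28.9% in D12 and 29.6% and 30.6% in riPSC.

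Lactate leaves and enters cells through monocarboxylate carriers. Slc16a3, which encodes the exporter MCT4, had the largest D12 and riPSC difference of the 40 genes. It read 9.28 and 7.77 in D0, 3.85 and 4.11 in D2, 13.7 and 16.8 in D4, 40.1 and 45.9 in D6, 25 and 29.4 in D8, 10.4 and 9.03 in D10, 1.22 and 0.848 in D12 and 31.8 and 38.5 in riPSC. It rose from D4 to D6 by 1.44 ± 0.16, then fell from D8 to D10 with a log2 fold change of -1.40 ± 0.16 and from D10 to D12 with a log2 fold change of -2.40 ± 0.16 (adjusted p = 2.73e-07). D12 differed from riPSC with a log2 fold change of -4.15 ± 0.16 (adjusted p = 3.10e-10).

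Slc16a1, which encodes the carrier MCT1 for lactate and pyruvate in both directions, read 5.33 and 7.17 in D0, 32.1 and 32.9 in D2, 10.4 and 12.3 in D4, 17.3 and 17.6 in D6, 45 and 44.8 in D8, 41.1 and 42.3 in D10, 25.8 and 25.3 in D12 and 37.9 and 40.1 in riPSC. It rose from D6 to D8 by 1.32 ± 0.13 and was not called different between D12 and riPSC, except as lower in D12 (-1.11) on rescaling without mitochondrial and ribosomal protein transcripts. Slc16a1 made up 89.3% and 88.9% of the carrier pair in the D2 columns, 30.2% and 27.7% in D6 and 95.5% and 96.8% in D12. Emb, which encodes the MCT partner embigin, was also high on day 12, at 71.8 and 65.7 against 27.3 and 28.9 in riPSC, a difference of 1.26 ± 0.20. The other partner gene, Bsg, was 714 and 702 and 362 and 387.

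Pyruvate dehydrogenase carries pyruvate carbon into the mitochondrion's cycle, and its kinases switch it off. The kinase gene Pdk1 read 0 and 0.342 in D0, 3.2 and 4.25 in D4, 7.43 and 6.83 in D8, 2.93 and 2.85 in D12, 23 and 26.1 in riPSC and 29.7 and 33 in mESC. D12 differed from riPSC with a log2 fold change of -2.71 ± 0.22 (adjusted p = 2.46e-07). The subunit genes changed less: Pdha1 read 19.9 and 33.1 in D0, 39.9 and 40.4 in D12 and 80.3 and 81.8 in riPSC, and Pdhb read 19.5 and 30.8, 78.3 and 81.8 and 109 and 114. Both were called higher in riPSC than in D0, Pdha1 by 1.62 ± 0.18 and Pdhb by 2.14 ± 0.17, and neither was called between D12 and riPSC as deposited. Rescaled without mitochondrial and ribosomal protein transcripts, both were called lower in D12, Pdha1 at -1.52 and Pdhb just past 2-fold, and Pdha1 also passed with a pseudocount of 0.1 (-1.01) and without D12 replicate 2 or riPSC replicate 1.

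Another kinase gene, Pdk2, took the reverse order. It read 4.71 and 4.93 in D6, 9.52 and 9.83 in D8, 13.3 and 13.7 in D10 and 25.8 and 23.2 in D12, against 2.54 and 2.7 in riPSC, 2.82 ± 0.25 higher in D12 (adjusted p = 6.04e-07). Pdk3 was lower there, at -1.82 ± 0.12. Of the 11 other genes at this step, 7 were higher and 1 lower in riPSC than in D0, and 1 was higher and 3 lower in D12 than in riPSC. Dlat, the acetyltransferase subunit, was higher in riPSC than in D0 by 2.30 ± 0.21, and the pyruvate carrier gene Mpc2 was lower, at -1.38 ± 0.15.

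The pentose phosphate genes did not move as a block. G6pdx, glucose 6-phosphate dehydrogenase, the entry step, read 2.11 and 4.12 in D0, 38.7 and 24.6 in D2, 13.1 and 16.3 in D4, 25.6 and 23.9 in D6, 21.5 and 22.1 in D10, 10.0 and 10.4 in D12 and 19.3 and 19.9 in riPSC. The fibroblast libraries were the lowest, and G6pdx was the only 1 of the 5 called in riPSC against D0, at 2.37 ± 0.22 (adjusted p = 7.10e-07). Its fall from D10 to D12, -1.02 ± 0.22, dropped under 2-fold with a pseudocount of 5 (-0.81), median-of-ratios scaling (-0.93) or the length trend removed (-0.98), and without D12 replicate 1 (-0.99) or D10 replicate 2 (-0.999). Pgd, the second NADPH-forming enzyme, read 67.3 and 72.7 in D0, 61.4 and 66.1 in D6, 123 and 123 in D8, 162 and 168 in D10, 130.3 and 129 in D12 and 62.9 and 66.7 in riPSC. Its highest values were thus in D10, and its D12 and riPSC difference of 0.99 ± 0.11 was just short of 2-fold. It was called higher with quantile normalization (1.37), median-of-ratios scaling (1.21) and the length trend removed (1.09).

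In the non-oxidative branch, which exchanges pentoses with glycolytic sugars, transketolase (Tkt) read 136 and 117 in D0, 62.8 and 70.5 in D6, 110.2 and 109.7 in D10, 69.1 and 67 in D12 and 213 and 229 in riPSC. D12 lay -1.68 ± 0.13 from riPSC (adjusted p = 1.34e-07). Taldo1, transaldolase, read 289 and 219 in D0, 103 and 101 in D12 and 206 and 218 in riPSC. Its call in D12 against riPSC, -1.05 ± 0.15, was lost under median-of-ratios scaling (-0.83), quantile normalization (-0.79) and removal of the length trend (-0.94). Rpia, ribose 5-phosphate isomerase, went the other way, with 6.33 and 5.83 in D0, 3.22 and 4.09 in D6, 8.2 and 7.13 in D8, 11.2 and 12.6 in D10, 16.8 and 17.7 in D12 and 3.64 and 3.18 in riPSC. D12 held the highest values of any group, 2.05 ± 0.22 above riPSC (adjusted p = 4.67e-06).

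Of 8 other tested genes of the pentose phosphate pathway and its outlet to nucleotides, 3 were higher and 1 lower in riPSC than in D0, and 2 higher and 1 lower in D12 than in riPSC. The 1 that was lower in D12 was Prps1, a phosphoribosyl pyrophosphate synthetase that uses the ribose 5-phosphate. It read 1.83 and 2.05 in D12 and 76.9 and 84.5 in riPSC, a difference of -4.80 ± 0.34 (adjusted p = 7.57e-08). Its relative Prps2 read 32.8 and 32 and 15.8 and 16.6. The gene lower in riPSC than in D0 was Pgls, the lactonase, at 714 and 414 in D0 and 52.7 and 64.1 in riPSC, -3.20 ± 0.23 between them.

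The TCA cycle genes varied little in total. The 8 genes summed to 609.7 and 623 in D0, 519 and 532 in D6, 614 and 632 in D10, 653 and 642 in D12 and 559 and 599.8 in riPSC, and over all 18 libraries to between 519 and 780. Rescaled to the sum without mitochondrial and ribosomal protein transcripts, the totals were 1103 and 1131 in D12 and 1432 and 1468 in riPSC, which puts D12 lowest. Of the 8, 2 were higher and 1 lower in riPSC than in D0, and 1 was called in D12 against riPSC, Ogdh, as higher. The same rescaling instead called Cs, Idh3a (-1.06) and Fh1 (-1.26) lower in D12.

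Within that total the members differed. Mdh2, mitochondrial malate dehydrogenase, was the most abundant and the only 1 of the 40 called lower in riPSC than in D0. It read 395 and 348 in D0, 405 and 470.4 in D2, 314 and 297 in D4, 207 and 225 in D6, 204 and 198 in D12, 129 and 143 in riPSC and 144 and 162 in mESC, and the riPSC and D0 difference was -1.44 ± 0.11 (adjusted p = 1.22e-07). Mdh1, its cytosolic counterpart in the malate-aspartate shuttle, read 43.6 and 61.7 in D0, 109.6 and 110.0 in D10, 69.5 and 68.9 in D12 and 66.1 and 68.2 in riPSC and was not called in any of the 9 comparisons. The share of Mdh1 in the pair was 9.95% and 15.1% in D0 and 33.9% and 32.2% in riPSC.

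The isocitrate dehydrogenases differed by compartment. Idh1, the cytosolic NADP+ enzyme, read 7.1 and 13.3 in D0, 25.5 and 31.6 in D4, 42.5 and 38.9 in D6, 119 and 122 in D8, 108 and 110.2 in D10, 90.6 and 92.7 in D12 and 51.2 and 58.7 in riPSC. It rose from D6 to D8 by 1.54 ± 0.25 (adjusted p = 0.000218), and the D8, D10 and D12 libraries lay above all others. Idh2, the mitochondrial NADP+ enzyme, read 67.5 and 94.2 in D0, 127 and 129 in D4, 53.3 and 53.2 in D6, 67.2 and 68 in D8, 64.1 and 70.7 in D10, 138 and 142 in D12 and 124 and 134 in riPSC. It fell from D4 to D6 with a log2 fold change of -1.25 ± 0.13 and rose from D10 to D12 by 1.05 ± 0.13. The latter call was lost on rescaling without mitochondrial and ribosomal protein transcripts (0.72) and without D10 replicate 1 (0.98). Idh3a, a subunit of the NAD+ enzyme of the cycle itself, read 12.4 and 22.3 in D0, 44.7 and 42.4 in D8, 37.2 and 35.3 in D12 and 51.2 and 54.8 in riPSC. Idh1 supplied 14.8% and 17.1% of the summed FPKM of the 3 genes in D4, 51.6% and 52.4% in D8 and 22.7% and 23.7% in riPSC.

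Ogdh, a subunit of oxoglutarate dehydrogenase, had its highest values late in the course, with 15.7 and 15.7 in D0, 49.7 and 50.7 in D6, 69.3 and 74.8 in D10, 68.8 and 66 in D12 and 30.6 and 33.3 in riPSC. It was the 1 TCA gene called higher in D12 than in riPSC, by 1.05 ± 0.13, and this call was lost with a pseudocount of 5 (0.97), without riPSC replicate 1 (0.99) and on rescaling without mitochondrial and ribosomal protein transcripts (0.53). Cs, citrate synthase, read 21.7 and 33.6 in D0, 69.1 and 63.5 in D6, 64.1 and 65.3 in D12 and 89.9 and 90.7 in riPSC and was higher in riPSC than in D0 by 1.70 ± 0.20. Fh1, fumarase, read 22.7 and 29.6 in D0, 52.7 and 57.7 in D4, 29.3 and 28.8 in D12 and 47.1 and 51.3 in riPSC. The succinyl-CoA ligase genes varied least of all 40. Suclg1, the shared alpha subunit, ranged from 44.7 to 71.9 and Sucla2, the ATP-specific beta subunit, from 25.4 to 45.4 over all libraries, and neither was called in any of the 9 comparisons.

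Of 11 other tested genes listed for the cycle, with the cytosolic Aco1 not kept apart, 8 were higher in riPSC than in D0, where 40.1% of all tested genes were. Among them were Suclg2, the GTP-specific beta subunit of succinyl-CoA ligase, at 3.16 ± 0.19, and Aco1, cytosolic aconitase, at 2.12 ± 0.19. In D12 against riPSC, 2 of them were higher, Dlst, a further oxoglutarate dehydrogenase subunit, by 1.19 ± 0.16, and Aco1 by 1.12 ± 0.19. Dlst read 107 and 115 in D12 and 45.1 and 51 in riPSC, beside the Ogdh values above.

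Genes of the hypoxia-inducible factor (HIF) family and their known targets outside glycolysis were followed as a list of 20, since several of the 40 genes are textbook HIF targets. In D6 against D4, 4 were higher and 1 lower, with Adm, adrenomedullin, at 37.7 and 51.1 in D4, 397 and 385 in D6 and 20.2 and 21.1 in D8. In D8 against D6, 9 were higher and 1 lower. Epas1, which encodes HIF-2alpha, read 2.62 and 2.85 in D6, 61.3 and 58.4 in D8, 94.4 and 91.6 in D12 and 3.48 and 4.05 in riPSC. Hif1a read 41.7 and 42.6 in D8, 29.9 and 29.2 in D12 and 20.2 and 20.8 in riPSC. In D12 against riPSC, 4 were higher and 6 lower. P4ha2, a collagen prolyl hydroxylase subunit, was higher by 5.12 ± 0.10, and Ddit4, an inhibitor of mTORC1, lower, at -3.60 ± 0.32. The list mixes regulators with targets, and its counts can be set beside the 11.6% higher and 6.86% lower of all genes in D6 against D4, the 15.1% and 11.3% in D8 against D6 and the shares for D12 against riPSC given above.

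The reprogrammed cells and the embryonic stem cells had the smallest spread of differences. In riPSC against mESC the log2 fold changes of the 40 genes ran from -0.36 to 0.85, and none was called. Ldhb alone passed the adjusted threshold without the fold limit, at 311 and 341 in riPSC and 168 and 195 in mESC, 0.85 ± 0.11 (adjusted p = 0.000309). The next largest, Pfkfb3, read 10.7 and 12.6 and 6.58 and 8.1 and differed by 0.60 ± 0.20 (adjusted p = 0.0789). Of the 40 genes, 17 had overlapping values in the 2 groups. The share over all tested genes was not computed, so this count does not set the 40 apart. A difference that misses the threshold does not show that the levels are equal.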

How the data were processed

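Per the labels, total RNA of 18 samples was sequenced on an Illumina NovaSeq with reads of 150 bases. The authors deposited 1 FPKM value per Ensembl gene and library. The submitters' processing notes name mm10, fastp 0.20.1, HISAT2 2.2.1 and StringTie 2.0. Depth, 32.9 to 41.5 M reads in 16 libraries, was estimated from the smallest value steps and limits low genes. Symbols came from Gencode vM21 for 55141 of 55401 identifiers. Aldoa has a second identifier of at most 3.26 FPKM, which was not used.

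Genes that reached 1 FPKM in 2 or more libraries were tested on log2(FPKM + 1) with limma 3.58.1 in R 4.3.3, with 1 mean per group, all 18 libraries and 9 residual degrees of freedom. P-values were adjusted by Benjamini-Hochberg within each of 9 comparisons. Tested on simulated data for riPSC against D0 over 16439 genes, the procedure recovered 36% of 50 genes changed by 1 on the log2 scale and 94% of 50 changed by 2. A change of 1 lies exactly at the 2-fold threshold, so the 36% is limited by that threshold and is no measure of sensitivity. The simulated spread was normal and pooled over all groups, the D2 columns included. Near-identical copies were found with minimap2 2.31 (at least 300 aligned bases at 95% identity or more) against all annotated transcripts. Promoter sequences are RefSeq's on GRCm38.p6.

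The members and lists were chosen with earlier results of these data known. Per-library values were given for isozyme families and for the largest called changes. For genes outside the 40, the rule named up to 3 called genes of each list with a group mean of at least 10. Pgls, Prps2, Mpc2, Pdk3, Tigar, Bsg, Emb, Hif1a, Eno3 and Dlst are named beside it, chosen after their values were seen where the rule did not reach them. Some genes the rule reached are not reported here. Alternatives covered pseudocounts, filters, 4 scalings, the fold threshold, the libraries fitted, a replicate block and leaving out each library. The comparison of D4 with D0, the fit without D2 and the search for copies by sequence were added after seeing the data.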

Additional observations from a re-analysis of the deposited data

How the results depend on the processing

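Of 86 calls of a gene in a comparison, 1361 of 1459 refits kept the call, 98 kept the direction but not the call, and 0 reversed. Losses came from leaving out a library (19), removing the length trend (18), a pseudocount of 5 (17), fitting the compared libraries alone (15), median-of-ratios scaling (13), quantile normalization (9), rescaling without mitochondrial and ribosomal protein transcripts (6) and a pseudocount of 0.1 (1). The remaining settings, namely no filter, a filter at 5, the trend in limma, the replicate block, also crossed, and the fit without D2, lost none. They leave each fold change as it was, so only the adjusted p could move. Dropping the fold threshold, 86 of the 1459 refits, could lose no call by design. The 1361 includes all of these refits. The cause of a changed count below was not tested.

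Counts are of the 40 genes. Here and for the left-out libraries below, only counts that moved beyond a fixed ratio to the main count are listed. Counts that are not listed may have changed by less. The shares of all genes moved with the setting as well, so a changed count alone is no result about the 40. In D2 against D0, 6.42% of all genes were higher with a pseudocount of 5 and 31.8% with one of 0.1. A pseudocount of 0.1 gave 3 lower in D2 against D0 (6.64% of all genes) and 2 lower in D6 against D4 (8.91%). It gave 2 lower in D10 against D8 (4.05%). A pseudocount of 5 gave 4 higher in D2 against D0 (6.42%) and 1 higher and 1 lower in D4 against D2 (1.86% and 1.91%). It gave 3 higher in D8 against D6 (5.97%) and 1 higher in D12 against riPSC (8.34%). Median-of-ratios scaling gave 5 lower in D2 against D0 (7.61%) and 4 higher in D12 against riPSC (19.5%). In riPSC against D0 it gave 2 lower, Mdh2 and Rpia (18.9%). Quantile normalization gave 5 higher and 3 lower in D2 against D0 (9.87% and 8.81%) and 2 lower in D6 against D4 (7.85%). It gave 2 lower in D10 against D8 (2.44%), 3 lower in riPSC against D0 (21.3%) and 5 higher in D12 against riPSC (17%). Rescaling without mitochondrial and ribosomal protein transcripts gave 4 lower in D2 against D0 (5.74%) and 3 higher in D8 against D6 (12%). It gave 1 higher and 12 lower in D12 against D10 (3.72% and 8.29%) and 1 higher in D12 against riPSC (11.2%). Removing the length trend gave 5 higher and 5 lower in D2 against D0, 2 lower in D6 against D4, 2 lower in D10 against D8, 3 lower in riPSC against D0 and 4 higher in D12 against riPSC. Without a fold threshold the counts, higher then lower, were 19 and 6 in D2 against D0, where 40.3% and 13.4% of all genes were called. They were 9 and 8 in D4 against D2 (18.9% and 12.4%) and 17 and 6 in D6 against D4 (27.5% and 20.3%). In D8 against D6 they were 17 and 8 (32.5% and 24.2%), in D10 against D8 2 and 9 (3.16% and 7.31%) and in D12 against D10 6 and 21 (16.5% and 18.9%). This setting also gave 2 lower in riPSC against D0 (21% of all genes), 8 higher in D12 against riPSC (29.2%) and 1 higher in riPSC against mESC (7.45%). Fitting the compared libraries alone gave 0 higher and 0 lower in D2 against D0 (0.389% and 0.146%). In D4 against D2 it gave 1 higher and 1 lower (1.14% and 0.912%).

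Leaving out 1 library at a time moved the count of lower genes in D2 against D0 between 1 and 4 (2 without either D0 library, 4 without D2 replicate 2) and in D6 against D4 between 1 and 2 (2 without D6 replicate 2). The count of higher genes moved between 1 and 3 in D12 against D10 (1 without D10 replicate 1) and between 1 and 4 in D12 against riPSC (1 without riPSC replicate 1, 4 without riPSC replicate 2). Such fits assume that the lone library varies like the other groups. The replicate numbers shared by the groups did not pair the libraries (correlations of replicate deviations from -0.23 to 0.27), and the replicate block left the calls as they were, with 24 higher and 1 lower in riPSC against D0. Crossing the numbers in D4 against D2 (3 and 3) and D6 against D4 (7 and 1) changed no count.

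With near-identical copies from a fixed list of symbols added to their parents, the Eno2 share of enolase in D6 moved from 5.08% and 5.11% to 3.94% and 3.98%. Rescaled without mitochondrial and ribosomal protein transcripts, the glycolytic sum was 1859 and 1953 in D12 and 7937 and 8978 in D0.

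Limits are the 2 libraries per group, of unstated independence, the D2 columns, and depth, which leaves genes near 1 FPKM imprecise.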

Other observations

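Genes that draw carbon out of these pathways or refill them were followed as a further list. Of 16 tested genes of gluconeogenesis, anaplerosis and the metabolite shuttles, 9 were higher in riPSC than in D0 (limma, adjusted p under 0.05 and at least 2-fold), and 4 were higher and 5 lower in D12 than in riPSC. The shares of all tested genes were 40.1% higher in the first comparison and 16.7% higher and 19.8% lower in the second. Me1, the cytosolic malic enzyme that makes NADPH, read 15.2 and 17.4 in D0, 83.3 and 80.9 in D12 and 10.4 and 10.7 in riPSC, a log2 difference of 2.85 ± 0.12 between the last 2. Fbp2, the muscle fructose bisphosphatase, read 12.9 and 12.9 in D12 and 0.579 and 0.494 in riPSC, 3.18 ± 0.12. Pck2, the mitochondrial phosphoenolpyruvate carboxykinase, went the other way at 8.95 and 11.3 and 49.3 and 61.1, -2.33 ± 0.28. It also differed between the stem cell groups, with 18.5 and 27.7 in mESC and a riPSC minus mESC difference of 1.24 ± 0.28.

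Among the genes higher in riPSC than in D0 were Gpt2, the mitochondrial alanine aminotransferase, at 3.47 ± 0.22, and Acly, which makes cytosolic acetyl-CoA from citrate, at 3.23 ± 0.17. Of the 20 genes of the HIF list, 9 were higher and 3 lower in the same comparison, near the 40.1% and 13.0% of all genes, with Bnip3, a mitophagy receptor, at 5.13 ± 0.41 and Kdm3a, a histone demethylase, at 3.96 ± 0.20. Ndrg1 rose from D6 to D8 by 3.67 ± 0.38.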
